A study of Rattus norvegicus with 4 samples.

Results

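MicroRNA (miRNA) levels of rat primary chondrocytes after 24 h of IL-1β were set against those after 12 h. Chondrocytes build and keep up the matrix of cartilage, and interleukin-1β (IL-1β) is an inflammatory cytokine that they respond to in joint disease. The comparison uses 2 of the 4 arrays of the study, chosen by their labels, and takes in every one of the 679 rat miRNA probes that each array carries in 5 spots. The cells of both arrays had been grown at 200000 per ml and given 10 ng/ml IL-1β, the first collected after 24 h and the other after 12 h. The other arrays hold cells given the same dose for 6 h and untreated cells of 0 h, and they enter below only to place a level in the whole series. Each group is 1 sample on 1 array with no replicate, and no array holds untreated cells of 12 or 24 h, so longer IL-1β, longer culture and the difference between single samples cannot be told apart. No test across samples is possible and no p-value is given. Each ± on a change is the standard error (SE) from the 5 spots on each of the 2 arrays, which covers spot-to-spot error only. In RNA of a whole culture, fewer cells that make a miRNA and less of that miRNA per cell cannot be told apart.

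A miRNA is a short RNA that guides the Argonaute protein to messenger RNAs, mostly by pairing of its bases 2 to 8 (the seed), and lowers their translation and stability. miRNAs with one seed form a family and share many targets. A hairpin precursor gives a miRNA from either arm, the less abundant of which was marked with a star in older names, and neighbouring hairpins are often cut from 1 transcript. In cartilage, miR-140 is the best known regulator of matrix homeostasis, and in many cell types miR-146a is switched on by NF-κB, the transcription factor downstream of the IL-1 receptor, and damps that pathway by targeting Irak1 and Traf6.

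The mature sequences that the results turn on are given here 5′ to 3′ as the array annotation lists them, with the seed in capitals. By exact sequence, 621 of the 679 probes matched a mature rat miRNA of RefSeq (assembly GRCr8), as did 230 of the 248 that were compared. The let-7 family is shown to compare let-7e and miR-98 with let-7a and let-7c, which are the closest family members with brighter spots.
let-7a: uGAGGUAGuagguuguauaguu
let-7c: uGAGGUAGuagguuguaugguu
let-7e: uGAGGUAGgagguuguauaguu
miR-98: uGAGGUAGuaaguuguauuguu
The same is shown for miR-26a and miR-26b, and for miR-146a and miR-146b, pairs of which 1 member changed and the other did not.
miR-26a: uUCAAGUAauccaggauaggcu
miR-26b: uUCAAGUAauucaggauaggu
miR-146a: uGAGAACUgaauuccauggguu
miR-146b: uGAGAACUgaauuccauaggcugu
Both members of the miR-101 family, which rose, are shown next, with miR-106b, which rose, and its seed-mates miR-20a and miR-17-5p, which did not pass.
miR-101a: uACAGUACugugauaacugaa
miR-101b: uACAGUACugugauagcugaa
miR-106b: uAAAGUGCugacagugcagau
miR-20a: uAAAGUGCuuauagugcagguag
miR-17-5p: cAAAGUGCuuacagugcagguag
Changed miRNAs that share no seed with another miRNA named here include miR-329, miR-365 and miR-10b.
miR-329: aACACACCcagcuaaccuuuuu
miR-365: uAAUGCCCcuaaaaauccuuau
miR-10b: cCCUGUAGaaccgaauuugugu
The last set holds 3 changed miRNAs with a run of at least 5 G, its first 5 here in capitals in place of the seed.
miR-290: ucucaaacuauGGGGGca
miR-3593-3p: cuucaaccuuaaGGGGGccuca
miR-328a*: GGGGGgcaggaggggcuca

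A probe counted as detected where at least 3 of its 5 spots lay above the 95th percentile of the 261 empty spots of its array, a limit of 86.2 intensity units at 24 h and 96.4 at 12 h. Of the 679 probes, 202 were detected on both arrays, 8 at 24 h only, 38 at 12 h only and 431 on neither. The 248 detected on at least 1 of the 2 arrays were compared. The 38 seen at 12 h only were dim, with a median of 67.8 units at 24 h and 107 units at 12 h, and 2 of them passed the rule for a change. Total miRNA signal was 4.19e+06 units at 24 h and 4.71e+06 at 12 h, and the median over probes of the coefficient of variation of the 5 spots was 9.54% at 24 h and 9.84% at 12 h. Median 5S RNA spots read 25642 units at 24 h and 26225 at 12 h. Among cartilage-enriched miRNAs, both arms of miR-140, both arms of miR-455 and the star arm of miR-675 were compared. Of these 5, 4 were detected at 24 h and 5 at 12 h. Among markers of other cell types, miR-142-3p and miR-451 of blood, miR-200c of epithelia, miR-124 of neurons, miR-122 of liver and miR-133a of muscle had none of their spots above the limit on either array. Other markers were detected on at least 1 of the 2 arrays. These were miR-150 of blood, miR-126 of endothelium, miR-206 of muscle, miR-128 of neurons, and miR-192 and miR-194 of liver. The marker lists gave at 24 h 0 of 6 blood, 0 of 7 epithelial, 1 of 2 endothelial, 1 of 6 muscle, 1 of 6 neural and 2 of 3 liver probes detected, and at 12 h 1 of 6, 0 of 7, 1 of 2, 1 of 6, 1 of 6 and 2 of 3 in the same order. Their summed intensities at 24 h and 12 h were 324 and 466 units for blood, 342 and 453 for epithelial, 271 and 253 for endothelial, 1312 and 1104 for muscle, 625 and 854 for neural, and 261 and 299.7 for liver markers. The muscle sum was mostly miR-206, and no marker passed the rule for a change.

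Spot intensities are given without processing, in scanner units, and means of them over the 4 arrays are not scaled to each other. Levels are on the log2 scale after background correction and quantile normalization over all 4 arrays, and a change is the difference of such levels, 24 h minus 12 h. Changes of miRNAs detected on 1 array only set a level against one at background. A miRNA counted as changed where its level differed at least 2-fold (a log2 change of at least 1 either way) and by more than 2 spot SE. Of the 248 miRNAs compared, 11 rose (4.44%) and 13 fell (5.24%), and the other 224 did not pass. The median change was 0.02, the quartiles were -0.29 and 0.34, and 186 miRNAs (75%) stayed within 1.5-fold. Changes of positive sign numbered 129 and those of negative sign 119. Levels at 24 h and 12 h correlated at r = 0.96 across the 248 miRNAs, which share their array, labelling and normalization and are not independent. The 5 spots at 24 h lay all above those at 12 h for 67 miRNAs (27%) and all below them for 51 (20.6%), so that separated spots alone were far more common than a 2-fold change. None of the 24 changed miRNAs had overlapping spots. The spread of the changes differed with level. In the dimmest 62 of the 248, by mean level, the SD of the change was 0.35, with 1 higher and 0 lower. In the next 62 the SD was 0.58, with 2 higher and 3 lower. In the third 62 it was widest at 0.98, with 4 higher and 5 lower. In the brightest 62 it was 0.86, with 4 higher and 5 lower. The levels hold an offset of 50 from the background correction. With an offset of 16 the changes of the changed miRNAs detected on 1 array only were wider. They were 2.72 against 2.01 for miR-3588, -2.29 against -1.85 for miR-665, -1.80 against -1.41 for miR-377 and 1.54 against 1.09 for miR-376b-3p. That of let-7e, bright on both arrays, was -1.70 against -1.69. The part of the offset in the small spread of the dimmest 62 was not tested.

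**Figure D1:**
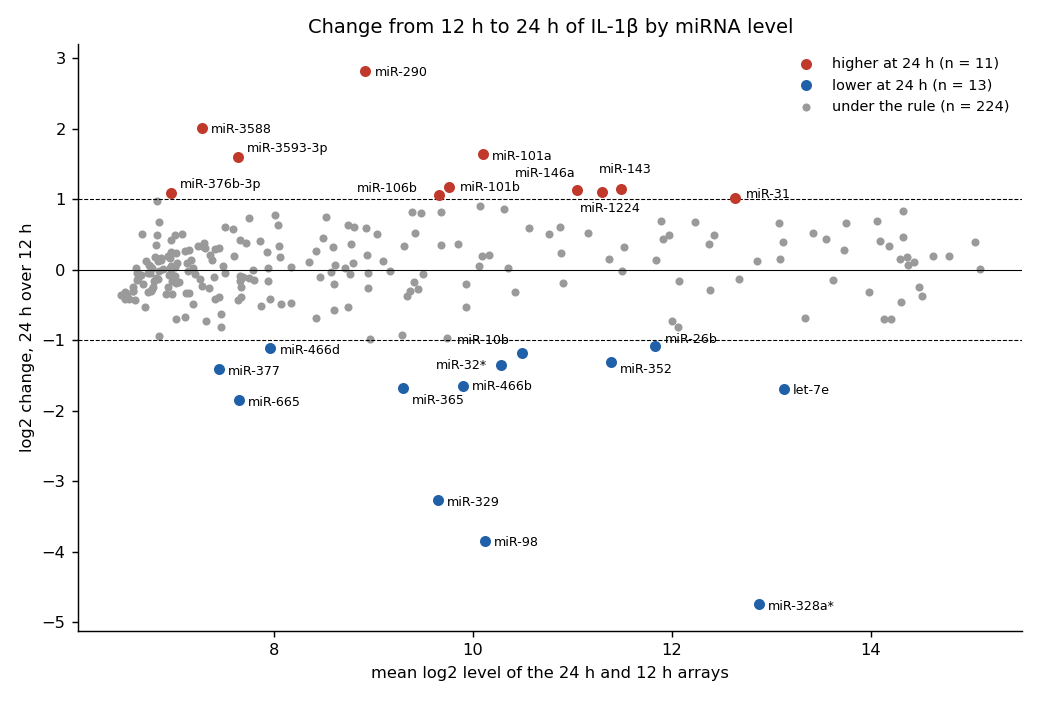
Log2 change (24 h minus 12 h, y axis) against the mean log2 level on the 2 arrays (x axis) for the 248 miRNAs compared. Coloured points are the 11 that rose and the 13 that fell; the widest changes, those of miR-328a*, miR-98, miR-329 and miR-290, belong to miRNAs that are not among the dimmest.

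The scaling between the arrays bears on how many miRNAs count in each direction. Without normalization the median change was -0.26, with 4 higher and 23 lower, and with median scaling (each array set to the median level of the miRNAs that all 4 arrays detected) it was -0.16, with 7 higher and 22 lower. Cyclic loess gave 9 higher and 17 lower. Unnormalized changes centred on their median gave 10 higher and 17 lower. After subtraction of the empty-spot median, the intensity ratio of 24 h over 12 h had a median of 0.854 over the 202 miRNAs detected on both arrays, and the ratios printed below as net ratios are to be read against that value. Of the 13 miRNAs that fell, 12 held under every alternative that kept them, and of the 11 that rose, 4 did. Alternatives that changed only the detection filter, loosened the rule or left out probes could not end a call of a miRNA they kept.

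The let-7 family, regulators of developmental timing and differentiation that repress Lin28 and Ras transcripts, held 2 of the 13 miRNAs that fell and had a negative change for 7 of its 8 members. Over all 248 miRNAs compared, 5.24% fell and 119 changes were negative. The family's probes are close in sequence and are not independent. miR-98 had 5 spots between 245 and 366 units at 24 h, against 5050.4 to 8718 units at 12 h. Its level was lower by 3.85 ± 0.22 (log2), a fold of 14.4, and no spot of one array came near those of the other. miR-98 read 529 units on the untreated array, 1074 at 6 h, 6969 at 12 h and 302.7 at 24 h, so that the 12 h array stood apart from the other three. let-7e had spots of 4006 to 5870.2 units at 24 h, against 17548 to 23059 units at 12 h, a change of -1.69 ± 0.14. Over the series its mean was 4797 units untreated, 11341 at 6 h, 19838 at 12 h and 5034 at 24 h, again highest at 12 h. The other members did not pass: the changes were -0.70 for let-7d and for let-7f, -0.46 for let-7b, -0.37 for let-7a, -0.25 for let-7c and 0.14 for let-7i. The family's median change was -0.58, against 0.02 over all miRNAs compared, and it stayed negative (-0.29 to -0.58) under the alternatives that kept its members.

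Sequences within the let-7 family differ by few bases. The let-7e sequence is 1 base change from let-7a, and the miR-98 sequence is 2 from let-7c. miR-352, which differs from let-7d by 2 edits, also fell, with 1531 to 2227 units at 24 h, against 5859 to 8029 units at 12 h, a change of -1.31 ± 0.13. miR-98 and let-7f come from neighbouring hairpins on the X chromosome (GRCr8, chrX:24460052-24460741, plus strand, within the span of the ubiquitin ligase gene Huwe1), yet their changes were -3.85 and -0.70. The RefSeq table used gives gene spans without exons. let-7e lies at chr1:67350243-67350264 (plus strand, within the span of Spaca6) beside miR-99b and miR-125a, whose changes were 0.43 for miR-99b and -0.69 for miR-125a-5p.

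Control probes on the arrays include mismatched copies, paired here by name alone. How many bases they differ by is not given in the sources used here. Whether they behave like miRNAs this close in sequence was not tested. Spike controls whose names mark them as mismatched copies of a matched control were above the detection limit on all 4 arrays in 10 pairs. The mismatched spots read a median of 1.96% of their matched spots at 24 h and 23.3% at 12 h, with 2.23% on the untreated array and 3.22% at 6 h. Of the 10 pairs, 9 were lower at 24 h than at 12 h, with a median ratio within pairs of 0.278. The pairs differed widely, from 0.05% to 85.4% at 24 h and from 0.44% to 94.8% at 12 h, and some share a matched control. Brightness for this purpose was read on the arrays of 0 h and 6 h, which are not part of the change, in a rule chosen after the values were seen. Of the 248 miRNAs, 19 lie within 4 edits (substitutions, insertions or deletions) of a miRNA whose spots are at least 4 times as bright on both of those arrays. Of these 19, 3 fell (miR-98, miR-352 and miR-26b) and 0 rose, and their median change was -0.31, against 0.04 over the other 229 miRNAs. Changes of 14 of the 19 were below that of their closest brighter relative and those of 5 above it, by a median difference of -0.60, and some of the 19 share a relative. With the 19 left out, 11 miRNAs rose and 10 fell. let-7e is not among them, and of the 2 arrays compared it meets the brightness rule at 24 h, where it is low, and not at 12 h. The contribution of mismatched binding to the falls of miR-98, let-7e, miR-352 and miR-26b was not tested.

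**Figure D2:**
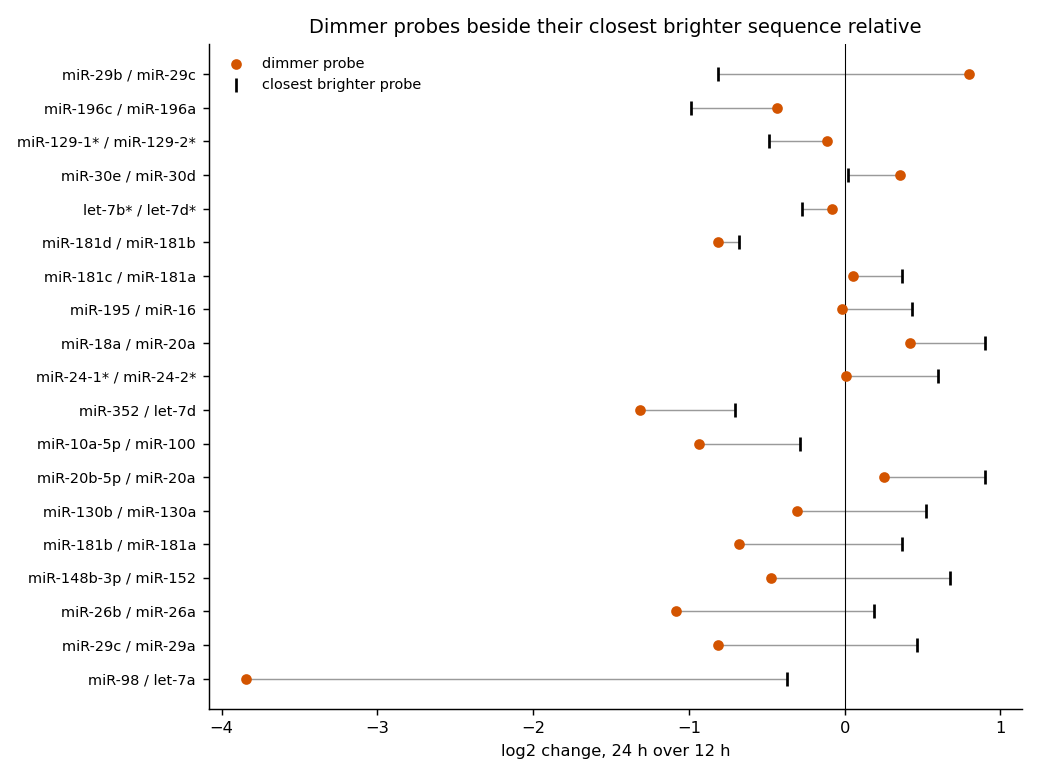
Log2 change (24 h minus 12 h, x axis) of the 19 dimmer probes that have a brighter probe within 4 edits, by brightness at 0 h and 6 h (orange points), with the change of that closest brighter probe (black bars). In 14 of the 19 the dimmer probe lies to the left of its brighter relative, and the distance is largest for miR-98.

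miR-26b, which together with miR-26a restrains cell growth and has Ezh2 among its targets, fell while miR-26a did not pass. It read 1941 to 3143 units at 24 h, against 6676 to 9306 units at 12 h, a change of -1.09 ± 0.16, beside a change of 0.19 for miR-26a. The miR-26b sequence lies 2 edits from that of miR-26a and maps to chromosome 9 within the span of Ctdsp1, whose family of phosphatase genes hosts the miR-26 hairpins.

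The largest change of all was that of miR-328a*, which had 1200.2 to 2137 units at 24 h, against 41760.1 to 49544 units at 12 h. Its level fell by 4.74 ± 0.20 on the log2 scale, a fold of 26.8. The 4 arrays read 13432 units untreated, 27566 at 6 h, 44770 at 12 h and 1657 at 24 h, and its normalized level was highest at 12 h and lowest at 24 h of the 4 arrays. The probe named miR-328a, without a star, averaged 357 units at 24 h and 415 units at 12 h and did not pass, with a change of 0.11 ± 0.03. A run of at least 5 G (motif GGGGG, searched on the given strand only) was found in 5 compared miRNAs, 2.02% of the 248. They included miR-328a* among those that fell and miR-290 and miR-3593-3p among those that rose. The others, miR-211* and miR-652*, changed by 0.03 and -0.10.

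miRNAs of the imprinted Dlk1-Dio3 locus, one of the largest miRNA clusters of mammals and active in mesenchymal and neural tissue, changed in both directions. Of 43 listed members 22 were compared, and 1 rose and 3 fell. The list median was 0.23, with 14 positive and 8 negative changes. All 248 miRNAs compared had a median of 0.02, with 129 positive and 119 negative changes, and 4.44% rose and 5.24% fell. miR-329 had 206 to 313 units at 24 h, against 3289 to 5127 units at 12 h, a change of -3.27 ± 0.11. It read 877 units untreated, 2311 at 6 h, 4081 at 12 h and 259.7 at 24 h, and so was lower at 24 h than on any other array. miR-665 and miR-377 were detected at 12 h but not at 24 h, so their folds are bounds against the lowest detected level of the 24 h array. miR-665 was at least 3.48-fold lower, with means of 74.5 units at 24 h and 503 units at 12 h. miR-377 was at least 2.59-fold lower, with means of 77.3 units at 24 h and 364 units at 12 h. miR-376b-3p moved the other way, with 149.7 to 180.4 units at 24 h and, undetected, 64.2 to 97.4 units at 12 h, which makes it at least 1.88-fold higher. The change of miR-376b-3p (1.09 ± 0.10) dropped to 0.91 with undetected miRNAs set at the lowest detected level and to 0.99 without normalization. The 33 hairpins at chr6:134543460-134579828 (plus strand) gave 23 compared miRNAs with a median change of 0.21. Their changes differed widely: miR-411 changed by 0.57, miR-134 by 0.73, miR-382 by -0.05 and miR-299 by -0.26.

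miR-365, which responds to mechanical load in chondrocytes and targets Hdac4 in chicken chondrocytes, fell. Its spots read 295 to 445 units at 24 h, against 1293 to 1821 units at 12 h, a change of -1.68 ± 0.12. The means were 219 units untreated, 620 at 6 h, 1563 at 12 h and 375.7 at 24 h, so the 24 h value lay between the untreated and 6 h values. The other arm of the hairpin, miR-365*, did not pass and had a change of 0.63 ± 0.12, the widest gap among the 45 pairs of arms placed on 1 RefSeq hairpin. miR-328a* has no place among those pairs because its sequence was not matched.

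The group of miR-10, miR-99, miR-100, miR-125 and miR-196, several of which lie in Hox clusters, had 8 negative changes of 10 and a median of -0.48, which stayed negative under the alternatives, and 2 members, miR-10a-5p and miR-196c, were not detected at 24 h. Beside this, 119 changes of all 248 miRNAs compared were negative and 5.24% fell. miR-10b, within the span of Hoxd4 (chr3:80035886-80035907, plus strand), was the member that fell, with 1089.7 to 1285 units at 24 h, against 3021 to 3782 units at 12 h, a change of -1.18 ± 0.09. The authors' own processed values give -0.89 for miR-10b, under the 2-fold rule. miR-196a (-0.99) lay just outside the rule, and the brightest member, miR-125b-5p, changed by 0.01.

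miR-466b, miR-466d and miR-32* complete the miRNAs that fell. The miR-466 hairpins are rodent repeats within the span of Sfmbt2, a Polycomb gene. miR-466b averaged 588 units at 24 h and 2609.6 units at 12 h, a change of -1.65 ± 0.09. miR-466d averaged 153 units at 24 h and 481 units at 12 h, a change of -1.12 ± 0.10. miR-32*, from a hairpin in the span of Tmem245, averaged 973 units at 24 h and 2959 units at 12 h, a change of -1.35 ± 0.06. All 3 hold UGUGUG, a motif found, on the given strand, in 8 of the 248 miRNAs compared (3.23%), of which the other five (let-7b, miR-206, miR-297, miR-493 and miR-672) changed by -0.71 to 0.52 and did not pass. UGUGUG and GGGGG were the only motifs counted and were not part of the planned lists. Finding changed miRNAs among their holders is therefore no independent result. The opposite arms of miR-466b, miR-466b-1* and miR-466b-2*, had changes of 0.11 and -0.15.

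**Figure D3:**
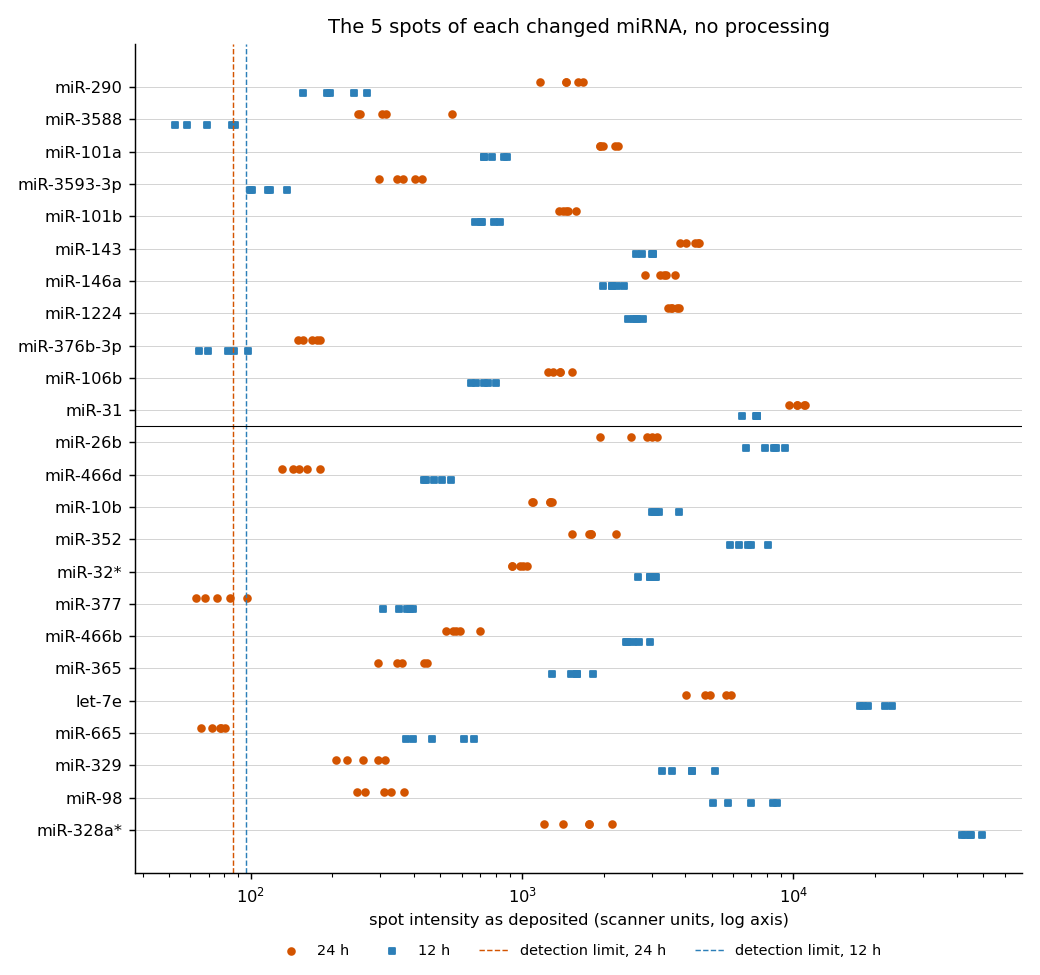
Intensity without processing (x axis, log scale) of each of the 5 spots at 24 h (orange) and at 12 h (blue) for the 24 changed miRNAs, with the detection limits as dashed lines. The spots of the 2 arrays do not overlap for any of the 24; miR-665 and miR-377 lie at the limit at 24 h, and miR-3588 and miR-376b-3p at 12 h.

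Among the miRNAs that rose, the largest change was that of miR-290, a member of a rodent cluster known from embryonic stem cells. Its spots read 1168 to 1671 units at 24 h, against 155 to 269 units at 12 h, a change of 2.82 ± 0.19 and a net ratio of 10.4. The means were 971 units untreated, 246 at 6 h, 210.1 at 12 h and 1471 at 24 h, and on the normalized log2 scale the levels were 10.56, 8.35, 7.51 and 10.33, so that the untreated and 24 h arrays stood above those of 6 h and 12 h. Of the 9 probes of the miR-290 cluster (chromosome 1), miR-295 was the other one compared, and it was not detected at 24 h. miR-3593-3p followed the same course, with 326 units untreated, 98.6 at 6 h, 114 at 12 h and 367.6 at 24 h, and rose by 1.59 ± 0.10. miR-3588 averaged 334.5 units at 24 h and 70.5 units at 12 h, where it was not detected, and was at least 3.21-fold higher. These 3 held under every alternative that kept them, as did miR-101a.

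Both members of the miR-101 family rose, beside 4.44% of all 248 miRNAs compared. The 2 probes are close in sequence and are not independent. The best known target of the family is Ezh2, the methyltransferase of Polycomb complex PRC2. miR-101a had 1929 to 2251 units at 24 h, against 722 to 881 units at 12 h, a change of 1.64 ± 0.08 and a net ratio of 2.78. miR-101b had 1367 to 1585 units at 24 h, against 672 to 833 units at 12 h, a change of 1.17 ± 0.09 and a net ratio of 2.09. Both were highest at 24 h among the 4 arrays, at log2 levels of 8.81, 9.04, 9.28 and 10.91 for miR-101a and 8.60, 8.73, 9.17 and 10.34 for miR-101b in the order 0, 6, 12 and 24 h. The 2 mature sequences come from chr5:121081691-121081711 (minus strand) and, within the span of Rcl1, chr1:236273982-236274002 (plus strand). The change of miR-101b was 0.97 without normalization, just under the rule.

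Of the miRNAs that inflammation induces in other cells, 7 were compared, and 2 rose and 0 fell. Among all 248 compared, 4.44% rose and 5.24% fell. miR-146a had 2839 to 3667 units at 24 h, against 1993 to 2365 units at 12 h, a change of 1.13 ± 0.09 and a net ratio of 1.53. Its means were 453 units untreated, 916 at 6 h, 2176 at 12 h and 3288 at 24 h, a higher value at each time. Under cyclic loess, median scaling, no normalization and no normalization with centring its change was 0.79, 0.69, 0.59 and 0.85, which ends the call. miR-31, a regulator of NF-κB signalling in several cell types, had 9625 to 10980 units at 24 h, against 6476 to 7362 units at 12 h, a change of 1.02 ± 0.06 and a net ratio of 1.46. It stands at the edge of the rule and dropped under it in 8 of 20 alternatives, to as little as 0.54. Several of the 20 reuse the main change and could not end the call of miR-31. The other five did not pass: miR-221 changed by 0.69, miR-222 by 0.67, miR-21 by 0.39, miR-132 by -0.20 and miR-146b by -0.26. miR-146b shares the seed of miR-146a. The list's median was 0.67, with a range of 0.50 to 0.76 over the alternatives that kept its members.

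miR-143, miR-106b and miR-1224 complete the miRNAs that rose. miR-143, a miRNA of smooth muscle and other mesenchymal cells, had 3802 to 4483 units at 24 h, against 2619 to 3036 units at 12 h, a change of 1.15 ± 0.06 and a net ratio of 1.47. Its neighbour miR-145, within the span of the same non-coding gene Carmn, changed by 0.12 ± 0.11. miR-106b, from a hairpin within the span of the replication gene Mcm7, had 1245 to 1521 units at 24 h, against 651 to 805 units at 12 h, a change of 1.06 ± 0.10 and a net ratio of 2.02. Its cluster partners miR-93 and miR-25 changed by 0.35 and 0.24. miR-1224, cut from an intron of Vwa5b2 as a mirtron, had 3443 to 3785 units at 24 h, against 2457 to 2789.9 units at 12 h, a change of 1.10 ± 0.05 and a net ratio of 1.39. The calls of miR-143 and miR-1224 each ended in 5 of 20 alternatives, with changes down to 0.54 for miR-143 and 0.46 for miR-1224. Several of the 20 reuse the main change and could not end a call. The call of miR-106b ended without normalization (0.92).

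**Figure D4:**
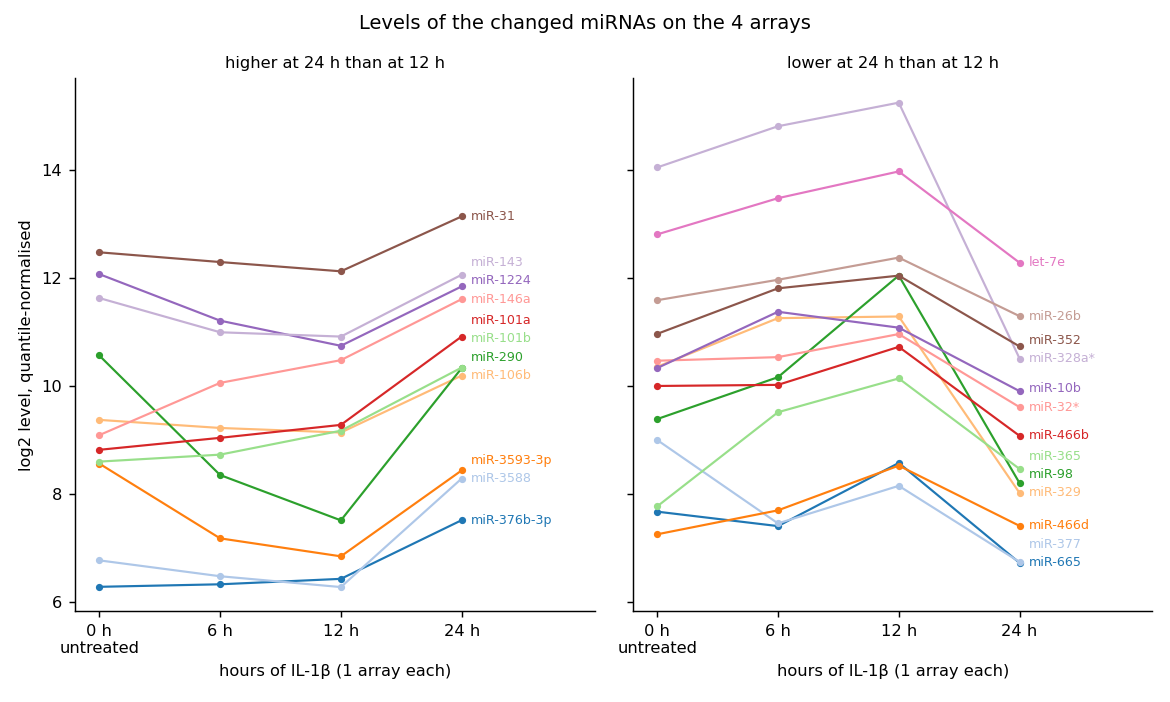
Log2 levels (y axis, quantile-normalised) of the miRNAs that rose and of those that fell between 12 h and 24 h, on the arrays of 0, 6, 12 and 24 h (x axis, 1 array each). Most lines of the miRNAs that fell peak at 12 h and end at their lowest point at 24 h.

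Placed in the whole series, the miRNAs that fell had mostly been at their highest on the 12 h array: 11 of the 13 had their highest level of the 4 arrays there, the exceptions being miR-10b (highest at 6 h) and miR-377 (highest untreated). At 24 h 11 of the 13 had their lowest level of the 4. Of the 11 that rose, 8 had their highest level at 24 h and 7 their lowest at 12 h. Over all 248 miRNAs, 83 were highest and 71 lowest at 24 h, and 55 were highest and 65 lowest at 12 h. A miRNA called lower at 24 h than at 12 h is favoured by the call itself to be high at 12 h and low at 24 h, so these counts describe the course and are no independent result. The share of mismatched signal was also highest on the 12 h array, and its part in the high 12 h levels was not tested. Set against the 6 h array, the 13 that fell had changes of -4.30 to -0.29 and the 11 that rose changes of 0.63 to 1.98, beside a median of -0.03 over all 248. This comparison shares the 24 h array with the call, so the values are side by side and not a second measurement of the change. Among them, miR-328a* at 24 h was lower by 4.30 ± 0.25 (log2), miR-329 by 3.24 ± 0.16, miR-98 by 1.96 ± 0.26 and miR-10b by 1.47 ± 0.10. On the same terms miR-290 was higher by 1.98 ± 0.20, miR-101a by 1.88 ± 0.06, miR-101b by 1.61 ± 0.09 and miR-146a by 1.55 ± 0.13.

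The cartilage-enriched miRNAs did not pass the rule: 0 of 5 compared rose and 0 fell, with a median of 0.39. For all 248 compared, 4.44% rose, 5.24% fell, 129 changes were positive and the median was 0.02. miR-140 changed by 0.74 ± 0.08, its star arm by 0.39 ± 0.13, miR-455 by 0.13 ± 0.09, miR-455* by 0.59 ± 0.03 and miR-675* by -0.05 ± 0.08. The list of miRNAs that regulate cartilage matrix and proteases had 0 of 10 past the rule, a median of 0.57 and 9 positive changes. It includes miR-127 at 0.86, miR-29b at 0.80, miR-320 at 0.69, miR-29a at 0.47, miR-27b at 0.40, miR-27a at 0.28 and, negative, miR-29c at -0.81. The same list shares miR-140 (0.74) with the cartilage-enriched list, miR-222 (0.67) with the inflammation list and miR-145 (0.12) with the mesenchymal list. Other members are also on family lists, so the list medians are not independent. Mesenchymal miRNAs had 1 of 7 higher (miR-143) and a median of 0.50. The miR-17-92 cluster and its paralogs, which promote cell cycle entry, had 1 of 10 higher (miR-106b), 0 lower and a median of 0.35.

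Of the other families, none had a member past the rule. Median changes were 0.47 over the 3 members of the miR-29 family, 0.28 over the 5 of the miR-23/27/24 clusters, 0.61 over the 3 compared of the miR-34 family and 0.34 over the 5 compared of the families of miR-148, miR-152, miR-130 and miR-301. The median of the miR-181 family was -0.31. The medians of the miR-30 (0.21) and miR-15/16 (-0.01) families changed sign under at least 1 alternative that kept their members, and the miR-30 median reached -0.36.

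Ranking by brightness at 24 h works against miRNAs that fell. The brightest miRNA spot at 12 h (49544 units) was one of miR-328a*, which fell most. The 10 miRNAs with the brightest spots at 24 h held none of the changed miRNAs. Their changes were 0.39 for miR-21, 0.01 for miR-125b-5p, 0.20 for miR-23b, 0.84 for miR-24, 0.19 for miR-23a, 0.47 for miR-29a, 0.11 for miR-466b-1*, 0.19 for miR-26a, 0.07 for miR-466c* and 0.69 for miR-221. Just inside the rule stood miR-31 (1.02), miR-106b (1.06) and miR-376b-3p (1.09) among those that rose, and miR-26b (-1.09), miR-466d (-1.12) and miR-10b (-1.18) among those that fell. Just outside it were miR-3554 (0.97), miR-20a (0.90) and miR-127 (0.86), and miR-196a (-0.99), miR-196c* (-0.97) and miR-10a-5p (-0.94). Of these, miR-3554 was not detected at 12 h and is at least 1.63-fold higher, and miR-10a-5p was not detected at 24 h and is at least 1.46-fold lower, so their place beside the threshold is that of measured values at background.

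The 248 miRNAs hold 29 groups of at least 2 members with the same seed, 81 miRNAs in all. In 16 groups every member changed with the same sign, and the median distance between the highest and lowest member was 0.56. Many groups hold only 2 members, and their probes are often close in sequence. A shared sign is therefore no independent result. Of the 81 members 7 passed the rule (8.64%), in 5 groups, which is near the 9.68% over all 248. The AAAGUGC group held miR-106b at 1.06, miR-20a at 0.90, miR-17-5p at 0.36, miR-93 at 0.35 and miR-20b-5p at 0.25, all positive. The AGCACCA group split, with 0.80 for miR-29b, 0.47 for miR-29a and -0.81 for miR-29c. The AGGUAGU group was negative throughout, with -0.99 for miR-196a, -0.52 for miR-196b and -0.43 for miR-196c.

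**Figure D5:**
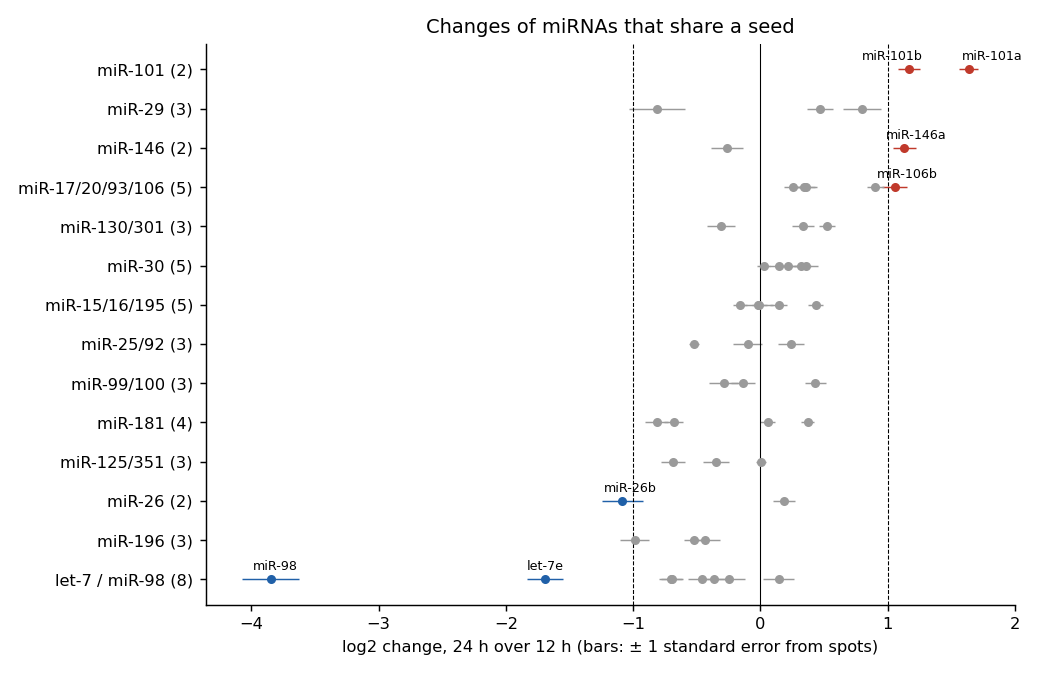
Log2 change (24 h minus 12 h, x axis) of each member of seed-sharing groups (rows), with ± 1 SE from spots as bars. The let-7 and miR-98 group spreads from 0.14 to -3.85, while both miR-101 members lie above 1.

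Of the 45 pairs of compared arms placed on 1 RefSeq hairpin, 7 had 1 arm past the rule and 0 had both. The 7 pairs hold 6 changed miRNAs, since miR-466b counts with each of its hairpins, among 87 arms, against 24 of 248 (9.68%) over all miRNAs compared, so these counts say nothing particular to arms. The signs were opposite in 21 pairs and the median distance between arms was 0.39. The distance was over 1 in 5 pairs, among them miR-365 with miR-365*, miR-34c (0.61) with miR-34c* (-0.93), and miR-10b (-1.18) with miR-10b* (0.02). In the 3 pairs whose main arm rose, the star arm did not pass: 0.77 for miR-31* beside 1.02 for miR-31, 0.49 for miR-146a* beside 1.13 for miR-146a and 0.10 for miR-106b* beside 1.06 for miR-106b. Star arms made up 66 of the miRNAs compared, with a median of -0.07 and 2 past the rule (miR-328a* and miR-32*), against a median of 0.08 and 22 past the rule among the other 182.

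Base composition and length did not track the changes over the whole set. Across the 248 miRNAs the correlation of the change with GC content was 0.00 and with length -0.01, as a description over probes that share both arrays. The median GC content was 45.5% among the 11 that rose, 38.1% among the 13 that fell and 50% among the others.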

How the data were processed

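Total RNA was size-selected, extended with a poly(A) tail and tagged for Cy5 staining, per the labels' protocols. The authors deposited the mean intensity of every spot of each array, on a linear scale; empty spots read well above 0, so no background had been subtracted. The scanner and image software are not given in the sources used here. The deposited value table of the series (the authors' values, 1 linear intensity per miRNA and array, method not given in the sources used here) served as an alternative.

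Spot intensities of the 4 arrays were background-corrected (normexp, fitted on all spots, offset 50) and, as log2 values, quantile-normalized over the miRNA spots with limma 3.58.1 in R 4.3.3, then averaged over 5 spots. Changes, lists and sequence matches used Python 3.11.15, numpy 2.4.6 and pandas 2.3.3, and plots matplotlib 3.10.9. A change needed 2-fold and more than 2 spot SE. The number of arrays limits the precision. For a miRNA undetected on 1 array, the bound uses that array's lowest detected level (6.77 at 24 h and 6.60 at 12 h, log2), or its own level where higher, while the call uses the measured level.

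The miRNAs named are all that passed (up to 15 each way), the 10 brightest at 24 h, the 3 nearest the threshold on each side, opposite arms and seed-mates of these, and members of 19 fixed lists and 6 marker lists. miR-328a, the other miRNAs with GGGGG or UGUGUG and cluster neighbours were named after their values were seen. The comparison, lists and rules were chosen with earlier results of these data known. Background correction, normalization, detection and the call were tested on simulated data, made from the 12 h array with spot noise and known changes. That simulation holds no difference between arrays in scale or mismatched binding. The lists, sequence relatives, arms, seed groups, bounds and alternatives were not tested on simulated data. Alternatives varied the background, normalization, detection, spot summary and threshold, and left out related probes.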

Additional observations from a re-analysis of the deposited data

Results flagged for a closer look

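Control spots that no comparison between samples uses carried a signal on the 12 h array above that of the untreated array. Among 10 pairs of spike controls above the detection limit on all 4 arrays, mismatched spots read a median of 1.96% of their matched spots at 24 h and 23.3% at 12 h, against 2.23% on the untreated array and 3.22% at 6 h. The share at 24 h over that at 12 h had a median ratio of 0.278, and 9 of 10 pairs were lower at 24 h. The part of this difference in the changes of miR-98, let-7e, miR-352 and miR-26b was not tested. Groups of 1 array allowed no check for a sample far from its group.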

How the results depend on the processing

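Of 20 alternatives, 18 were planned and 2 (quantile normalization of linear values, and leaving out probes with a relative brighter at 0 h and 6 h) were chosen after seeing the data. Against 11 higher and 13 lower with a median change of 0.02, median scaling gave 7 higher and 22 lower with a median of -0.16, no normalization gave 4 and 23 with -0.26, a 1.5-fold rule gave 34 and 28, and cyclic loess gave 9 and 17. The other alternatives gave 9 to 13 higher and 9 to 17 lower. Of the 469 values of changed miRNAs over these settings, 442 kept direction and call, 27 kept direction but not the call and 0 reversed. The 442 include settings that reuse the main changes, where no call could end. These changed only the detection filter, used the 1.5-fold rule, dropped the spot-error rule or left out related probes. The 27 belong to miR-31, miR-143, miR-1224, miR-146a, miR-376b-3p, miR-101b, miR-106b and miR-10b; the cause was not tested. miR-98, miR-352 and miR-26b drop out where probes with a relative brighter at 0 h and 6 h are left out (11 higher, 10 lower). The planned rule, brighter on either of the 24 h and 12 h arrays, also removes let-7e (11 higher, 9 lower), but let-7e and miR-26b meet it on the 24 h array only, where they are low, so that count is partly fixed by the rule. miR-665, miR-377, miR-376b-3p and miR-3588 drop out where detection on both arrays is required. Of 19 list medians, 17 kept their sign in all alternatives with the same members, and those of the miR-30 and miR-15/16 families did not. The medians of the miR-26 and miR-181 families and the miR-290 cluster took the other sign only where the alternative left members out or let undetected ones in. Signal close to the empty spots limits what can be said of the 431 miRNAs detected on neither array. No replicate could be left out, as each group is 1 array. No paired analysis was possible because each group holds 1 array and no spread between pairs exists.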
